A study of Sus scrofa with 21 samples.

Results

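Claudins are membrane proteins of the tight junction, the seal between neighbouring epithelial cells, and 10 of them that are studied in the intestinal barrier were followed by gene symbol in distal small intestine of 21 piglets. Of these, 7 were found in the pig gene table of 18661 genes, of which 14276 carried a symbol: CLDN1 (ENSSSCG00000040904), CLDN2 (ENSSSCG00000037234), CLDN4 (ENSSSCG00000007718), CLDN7 (ENSSSCG00000017934), CLDN8 (ENSSSCG00000012030), CLDN15 (ENSSSCG00000038901) and CLDN23 (ENSSSCG00000006966). CLDN3, CLDN5 and CLDN12 matched no symbol and were not analysed here. CLDN2, CLDN4, CLDN7, CLDN15 and CLDN23 passed the filter on low counts and were among the 13127 genes tested, while CLDN1 and CLDN8 were found and fell below it. The piglets were Danish Landrace/Yorkshire animals of 24 to 25 days. The control group of 10 piglets received milk replacer, and the starch group of 11 received the same kind of replacer with wheat added. The labels name no sex, litter or batch, so each piglet was 1 sample of its diet, and the comparison asks whether the added starch goes with a difference in claudin RNA.

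Claudins of neighbouring cells bind each other across the gap and set what may pass between the cells. Some form pores and make the junction selectively leaky: CLDN2 passes small cations and water, and CLDN15, known from mice as the main sodium pore of the small intestine, supplies sodium to the gut lumen for nutrient uptake. Others tighten it: CLDN1 seals the epidermis, CLDN4 limits sodium passage and is a receptor for the enterotoxin of Clostridium perfringens, and CLDN8 restricts sodium in the distal colon and kidney tubule. CLDN7 lies largely on the basolateral side of the cell, where it binds the adhesion protein EPCAM, and mice without it lose the integrity of the intestinal lining. CLDN23 is a less studied claudin of surface epithelia.

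The libraries held 6719264 to 8610458 expected counts per piglet. Along the leading principal component, which held 64.0% of the variance of the 500 most variable genes, control 5, control 8 and starch 3 lay at 70.5 to 78.6 and the other 18 piglets at -27.5 to 21.3. The 3 piglets had 449 to 560 CPM (counts relative to the TMM-scaled library size) summed over the 15 tested absorptive enterocyte markers, against 9871 to 49220 in the other 18. Over the ileum markers they had 7.19 to 54.1 CPM, against 640 to 6303. Both lists were thus far lower in these 3 than in any other piglet. Crypt markers were not low there, at 2124 to 3444 CPM in the 3 against 941 to 4040. The 9 tested markers of epithelium as a whole summed to 3659 to 5986 CPM in the 3 and 1796 to 4437 in the 18. Goblet cell markers were at 1732 to 3987 CPM in the 3 against 459 to 1716, macrophage markers at 2407 to 3394 against 363 to 1526, and smooth muscle markers at 22120 to 38640 against 6512 to 22240. The part of these differences in the claudin values was not tested, and in bulk tissue fewer cells of a type and less RNA per cell cannot be told apart. The diet differences and the relations between claudins are therefore given with and without the 3 piglets.

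Among the 7 claudins found by symbol, CLDN7 was the most abundant RNA per length in every piglet. In FPKM (fragment counts that the authors divided by transcript length and library depth, so that genes of different length can be compared) its median over the 21 piglets was 609, with a range of 407 to 891. CLDN15 followed at 193 FPKM (8.69 to 318), CLDN4 at 127 FPKM (76.0 to 196) and CLDN2 at 98.7 FPKM (30.8 to 162). CLDN23 lay far lower at 8.40 FPKM (2.28 to 16.1). CLDN8 had a median of 0.22 FPKM, and CLDN1 a median of 0 FPKM.

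Some neighbours in this order were separated in all animals and others were not. CLDN7 was above CLDN15 in 21 of 21 piglets, CLDN2 above CLDN23 in 21 of 21, and CLDN23 above CLDN8 in 21 of 21. CLDN15 was above CLDN4 in 17 of 21 piglets, the exceptions being control 5, control 8, starch 3 and starch 4. CLDN4 was above CLDN2 in 14 of 21 piglets only, and in 11 of the 18 without the 3 that stood apart, so their levels were not separated from each other. CLDN8 was above CLDN1 in 11 of 21. The order of the medians was the same on CPM per kilobase and without the 3 piglets.

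**Figure D1:**
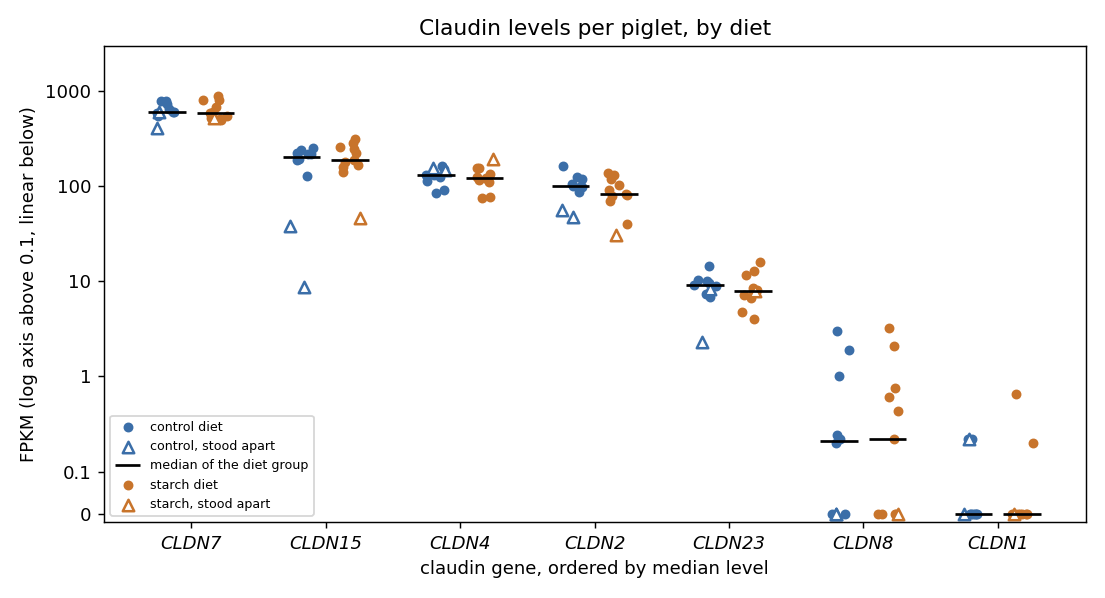
Level of the claudins in each piglet in FPKM on a log scale, by diet, with the piglets that stood apart marked. CLDN7 lies at 407 to 891 FPKM in all piglets, and CLDN15 spans 8.69 to 318 FPKM because control 5, control 8 and starch 3 are low.

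As a share of the summed FPKM of the 5 tested claudins, CLDN7 made up 48.0 to 71.2% in the 21 piglets. The pore-forming pair CLDN2 and CLDN15 together made up 25.6 to 33.2% in the 8 control piglets that did not stand apart and 18 to 39.5% in the 10 such starch piglets. The medians were 27.2% and 30.1%, and the control range lay wholly inside the starch range. In the 3 piglets that stood apart the pair made up 9.58 to 10.3%, below all 18 others. There the share of CLDN15 was 1.38 to 5.74%, against 10.9 to 27.8% in the others, and the share of CLDN4 was 18.4 to 24.4%, against 7.79 to 16.2%.

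**Figure D2:**
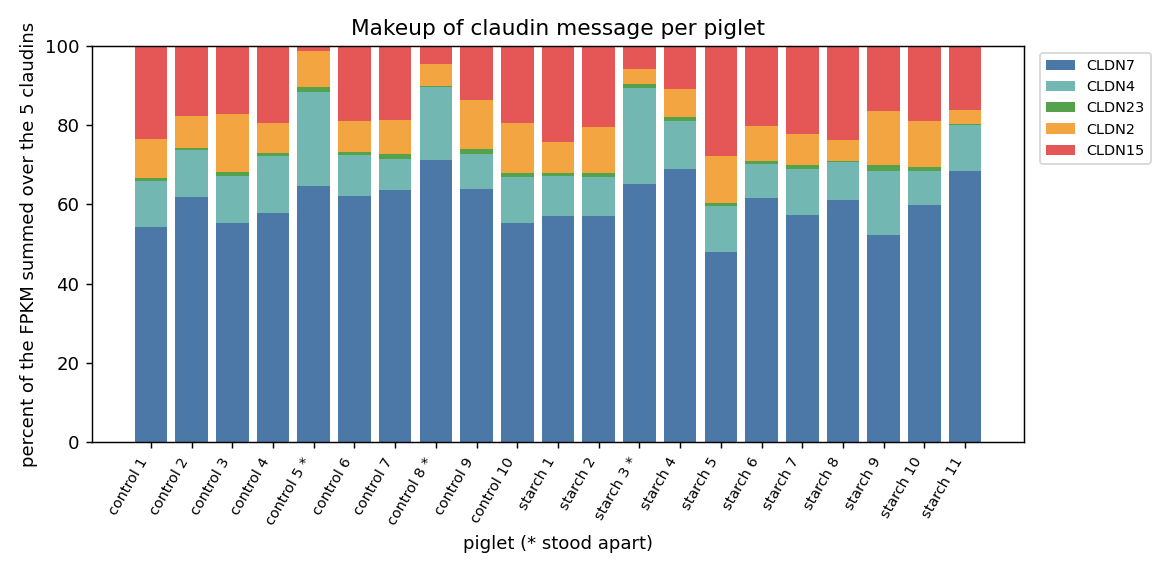
Share of each tested claudin in the summed FPKM of the 5, in percent, for each piglet by diet. The pore-forming CLDN2 and CLDN15 hold 9.58 to 10.3% in control 5, control 8 and starch 3, and 18 to 39.5% in the other 18 piglets.

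None of the 5 tested claudins passed the diet comparison, and the interval of each difference is given so that its size can be bounded. Of all 13127 genes, 0 (0%) passed at an adjusted p of 0.05 with edgeR's quasi-likelihood test, and 174 (1.33%) had an unadjusted p below 0.05, of which 121 (0.922%) were lower and 53 (0.404%) higher on starch. DESeq2, run without that filter on 18630 genes, also called 0, with 293 (1.57%) at an unadjusted p below 0.05. Voom called 0 of 13127, with 268 (2.04%) at an unadjusted p below 0.05. The adjusted p of each tested claudin was 0.9998 in edgeR, and 0 of the 5 were below 0.05 unadjusted, which is near the background.

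Among the pore-forming claudins, CLDN2 ran from 28.6 to 94.6 CPM in the control piglets with a median of 67.8, and from 18.4 to 92.6 CPM on starch with a median of 55.3. The groups overlapped over nearly their whole range, with starch 3 lowest and control 3 highest. The means were 63.0 ± 20.1 CPM (SD, n = 10) and 56.4 ± 20.7 CPM (SD, n = 11), a log2 difference of -0.16 (SE 0.23, 95% confidence interval -0.64 to 0.33). Without the 3 piglets that stood apart the difference was -0.24 (-0.58 to 0.09), again with no call in edgeR. With the epithelium score as a covariate it was -0.26 (interval -0.66 to 0.13) over all 21.

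CLDN15 had the widest spread in log2 CPM of the 5 tested claudins over all 21 piglets. It ran from 7.07 to 269 CPM in control piglets with a median of 201, and from 43.8 to 358 CPM on starch with a median of 219. The lowest value of each diet came from a piglet that stood apart, and the groups overlapped. The means were 174 ± 91.5 CPM (SD, n = 10) and 210 ± 86.5 CPM (SD, n = 11), with a log2 difference of 0.27 (SE 0.41, interval -0.57 to 1.12). This estimate was 0.10 (interval -0.30 to 0.50) without the 3 piglets and 0.13 without control 5 alone, and on FPKM, in limma with a pseudocount of 0.5, it was 0.53. None of these was called. Of the 3 annotated CLDN15 transcripts, the one of 1071 coding bases carried 90.6 to 100% of the gene's counts in a piglet, with a median of 99.3%. Fitted alone, a minor one of 588 bases, with at most 25.5 counts in a piglet, had a difference of 0.74 (interval -0.60 to 2.08). The other minor one, of 705 bases, had counts in 5 of 21 piglets and was not fitted. It reached 138.5 counts and 8.82% of the gene's counts in a piglet.

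The tightening claudin CLDN4 had the smallest difference between the diets of the 5. It ran from 42.7 to 95.3 CPM in control piglets with a median of 70.0, and from 37.1 to 105.5 CPM on starch with a median of 70.9. The means were 73.6 ± 17.7 CPM (SD, n = 10) and 73.6 ± 20.1 CPM (SD, n = 11), and the 95% interval of the log2 difference was -0.35 to 0.35. Without the 3 piglets the difference was -0.03 (interval -0.40 to 0.34). Starch 3, one of the piglets with little CLDN15, had the highest CLDN4 of all 21.

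CLDN7, the basolateral partner of EPCAM, ran from 189 to 527 CPM in control piglets with a median of 348, and from 258 to 553 CPM on starch with a median of 347. The means were 368 ± 103 CPM (SD, n = 10) and 380 ± 114 CPM (SD, n = 11), a log2 difference of 0.05 (SE 0.18, interval -0.33 to 0.43). Without the 3 piglets it was -0.0059 (interval -0.38 to 0.37). The lowest value was that of control 5 and the highest that of starch 4. The annotation gives CLDN7 a pair of transcripts of 636 coding bases whose counts were identical in 21 of 21 piglets, so only their sum is used here.

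CLDN23 ran from 1.92 to 12.7 CPM in control piglets with a median of 7.24, and from 3.66 to 11.9 CPM on starch with a median of 6.35. Control 8 was lowest and control 7 highest, so the control range enclosed the starch range. The means were 7.03 ± 2.71 CPM (SD, n = 10) and 7.15 ± 2.79 CPM (SD, n = 11). The log2 difference was 0.03 (SE 0.25, interval -0.49 to 0.55), and it turned to -0.11 (interval -0.58 to 0.36) without the 3 piglets, one of which is control 8.

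The claudins below the filter were at few counts or none in most piglets. A count of 3 is the upper limit that a count of 0 allows from counting error alone. Relative to the total expected count of each library, without the TMM scaling, this limit corresponds to 0.348 to 0.447 CPM. On the TMM-scaled CPM used for the other values, the 3 counts of CLDN1 in starch 10 were 0.322 CPM. CLDN1 had a count above 0 in 5 of 21 piglets, with 3 counts in starch 10 and 1 in each of the others. CLDN8 had a count in 12 of 21 piglets. It reached 17 counts in starch 2, 14 in control 7, 11 in starch 5 and 8 in control 6, and it had 0 counts in the 3 piglets that stood apart. High and low CLDN8 values occurred in both diets, with 6 detected piglets in each.

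Beyond the claudins, the other tight junction genes gave a like picture between the diets. Of 37 listed genes (the occludin family, junction scaffolds, polarity proteins and other adhesion proteins), 30 were tested, with 18 higher and 12 lower on starch, 0 called and 0 below an unadjusted p of 0.05. Their median log2 difference was 0.04, beside 0.0039 over all tested genes, of which 6711 were higher and 6416 lower on starch. The smallest p-values belonged to CGNL1, a scaffold linking the junction to the cytoskeleton, at 0.26 (interval -0.23 to 0.75), ILDR1 at 0.24, JAM3 at 0.14 and LSR at 0.10 on the log2 scale. ILDR1 and LSR are proteins of tricellular junctions, where 3 cells meet, and JAM3 is an adhesion molecule.

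**Figure D3:**
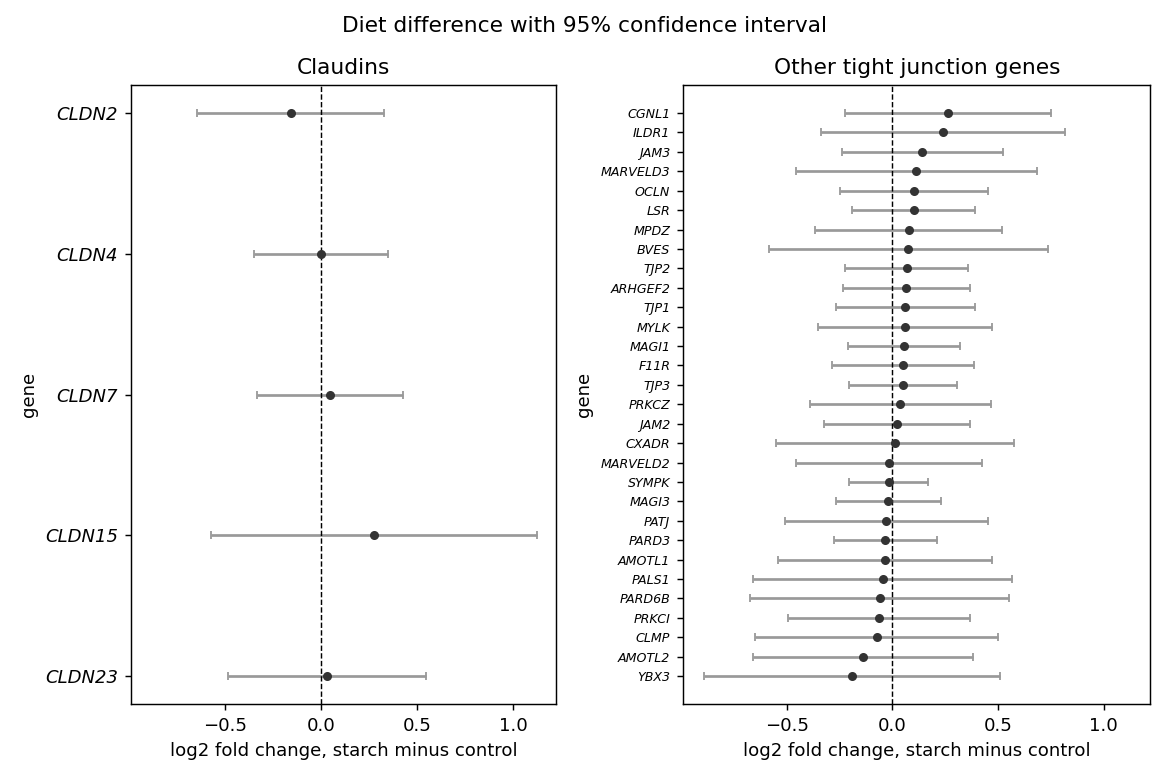
Log2 fold change, starch minus control, with its 95% confidence interval from edgeR's quasi-likelihood fit over all 21 piglets, for the 5 tested claudins and the 30 other tested tight junction genes. Every interval includes 0, and among the claudins that of CLDN15 is the widest, at -0.57 to 1.12.

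Of 15 adherens junction and desmosome genes, 14 were tested, with 9 higher and 5 lower, a median of 0.04 and 0 called. The smallest p in that list, 0.0878 unadjusted in the edgeR fit, was that of the adhesion molecule NECTIN3 at 0.22, while NECTIN1 was at -0.22, CTNNA1 at -0.07 and CTNNB1 at -0.10. Of 19 genes known to act on claudin expression or stability, 14 were tested, with 11 higher, 3 lower, a median of 0.07 and 0 called. The named ones were GATA4 at 0.28, WNK1 at 0.11, ST14 at 0.09 and KLF5 at 0.08. GATA4 is a transcription factor of the proximal gut, and ST14 encodes matriptase, a membrane protease of epithelia. Without the 3 piglets that list was split 7 higher to 7 lower with a median of 0.0021. The medians lay farther from 0 in some cell type lists. Of the goblet cell markers 8 of 8 were lower on starch with a median of -0.55, and 6 of 6 B cell markers were higher with a median of 1.63. In each list 0 were called and 3 were below 0.05 unadjusted, beside 1.33% of all tested genes. Markers of 1 cell type are not independent of each other, so these counts carry no test. Without the 3 piglets 6 goblet markers were lower and 2 higher, with a median of -0.25 and 0 below 0.05 unadjusted. The B cell median was 1.79 without them, but it came from a few animals: starch 9 and starch 10 had scores of 3.77 and 4.27, and the median summed level was lower on starch (18.9 CPM) than in controls (25.1 CPM).

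Over all 21 piglets the spread within a diet was widest for CLDN15 among the 5 tested claudins. The within-diet SD of log2 CPM was 1.29 for this gene, larger than that of 96.1% of tested genes. It was 0.61 for CLDN2 and 0.60 for CLDN23, and 0.43 for CLDN7 and 0.41 for CLDN4, beside a median of 0.46 over all tested genes. On another measure, the coefficient of variation of CPM with the diets pooled, CLDN15 was also widest over all 21 piglets, at 46.0%. CLDN23 followed at 37.8%. Over the 18 piglets without the 3 that stood apart CLDN23 was widest at 33.8%. There CLDN15 was at 27.8%, CLDN7 at 26.35%, CLDN4 at 25.0% and CLDN2 at 24.0%. In control 5, control 8 and starch 3, CLDN15 was at 7.07, 38.5 and 43.8 CPM, all below the 114 to 358 CPM of the other 18. CLDN2 was at 28.6, 31.0 and 18.4 CPM in the same piglets, against 29.9 to 94.6, where starch 11 was the lowest of the 18. CLDN4 was at 68.4, 92.1 and 105.5 CPM in them, against 37.1 to 95.4, so it was not low there. The 3 piglets were set apart by overall expression, so these values describe them and carry no test.

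Relations between claudins were read over the 18 piglets that did not stand apart, because the 3 others form a cluster of their own. In that family of 10 pairs, 2 passed at an adjusted p of 0.05. CLDN2 and CLDN23 were higher in the same animals, with Pearson r = 0.627 (permutation p = 0.00522, adjusted 0.034) and Spearman rho = 0.657 (permutation p = 0.0035, adjusted 0.035). Without the 2 piglets farthest from the median of CLDN2, r was 0.646. On residuals from the diet means over the same 18 piglets r was 0.612 (adjusted permutation p = 0.0342). With the 3 piglets put back, r was 0.705 in the 10 control and 0.526 in the 11 starch piglets, neither past the threshold after adjustment. The control value was 0.213 without the 2 farthest piglets, so it rests on those. CLDN4 and CLDN7 were also higher in the same animals, with r = 0.611 (permutation p = 0.00681, adjusted 0.034) and rho = 0.622 (permutation p = 0.00707, adjusted 0.0353). That r was 0.489 without the 2 farthest piglets, and on FPKM it was 0.37 with an adjusted p of 0.346 by permutation, so the call was lost on that scale. Over all 21 piglets it was 0.405 with an adjusted permutation p of 0.174.

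The relation between the pore-forming claudins over all piglets rested on the 3. Over all 21 piglets CLDN2 and CLDN15 had r = 0.646 (adjusted permutation p = 0.0204), and over the 18 r was -0.089. Both genes were low in the 3. CLDN7 and CLDN15 had r = 0.603 (adjusted permutation p = 0.0204) over 21 and 0.446 (adjusted permutation p = 0.199) over 18, so the call was lost with the direction kept.

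The claudins were also set against marker scores, each the mean centred log2 CPM of a list of cell type genes, in a family of 40 relations of 5 claudins with 8 scores. Over all 21 piglets 17 relations passed at an adjusted p of 0.05, 13 of them negative, and over the 18 piglets 4 passed, of which 1 was negative. CLDN15 was higher where absorptive enterocyte markers were higher, with r = 0.662 (permutation p = 0.00287, adjusted 0.0287) and rho = 0.769 (permutation p = 0.00029, adjusted 0.0114). It was lower where crypt markers were higher, with r = -0.693 (permutation p = 0.00145, adjusted 0.0287) and rho = -0.74 (permutation p = 0.00057, adjusted 0.0114). Both held without the 2 piglets farthest from the median of CLDN15, at 0.714 and -0.695.

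CLDN7 and CLDN4 went with the score of epithelium as a whole. For CLDN7 r was 0.752 (permutation p = 0.0001, adjusted 0.004) and rho was 0.707 (permutation p = 0.00135, adjusted 0.018), with r = 0.648 without the 2 farthest piglets. Over all 21 piglets r was 0.326 (adjusted permutation p = 0.218), so this call is absent when the 3 are included. For CLDN4 r was 0.662 (permutation p = 0.00271, adjusted 0.0287), while rho was 0.519 (permutation p = 0.0289, adjusted 0.144) and r without the 2 farthest was 0.452.

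**Figure D4:**
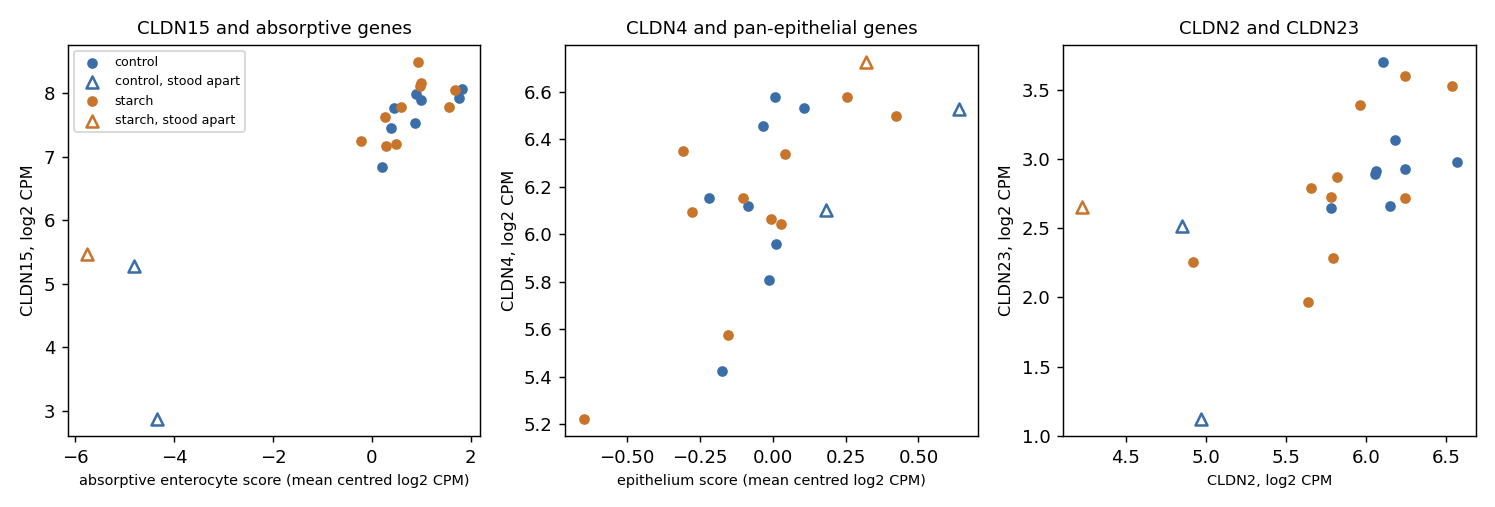
Log2 CPM of CLDN15 against the absorptive enterocyte score, of CLDN4 against the epithelium score, and of CLDN23 against CLDN2, 1 point per piglet, coloured by diet, with the piglets that stood apart as open triangles. Over the 18 other piglets r is 0.662, 0.662 and 0.627 and the triangles lie far below the rest for CLDN15.

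The scaling of the libraries moved with the same claudins. Over the 18 piglets the TMM scaling factor had r = -0.862 with CLDN7, -0.683 with CLDN15 and -0.571 with CLDN4 on log2 CPM. With CLDN2 it was 0.322 and with CLDN23 0.047. CPM is itself divided by this factor, so a negative r is partly built in, and the values are only a description. On FPKM over the 18 piglets 0 of the 40 marker relations passed. There r was 0.399 for CLDN7 and 0.461 for CLDN4 with epithelium, 0.618 for CLDN15 with absorptive markers and -0.638 for CLDN15 with crypt markers. By diet, 15 of 40 passed in the control piglets alone, which include 2 of the 3 that stood apart, and 0 of 40 in the starch piglets alone.

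**Figure D5:**
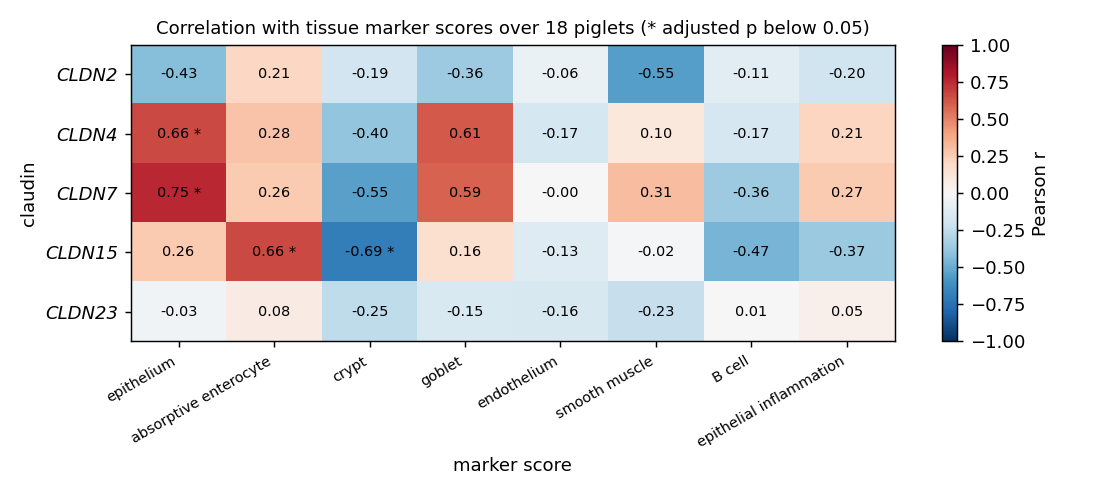
Pearson r of each tested claudin with each marker score over the 18 piglets that did not stand apart. The 4 relations past the threshold are CLDN7 and CLDN4 with epithelium, and CLDN15 with absorptive enterocyte (r = 0.662) and crypt markers (r = -0.693).

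The genes most like each claudin were ranked by the lower of r over 21 and over 18 piglets. For CLDN15 they were ENTPD8 (r = 0.885 over 21, 0.878 over 18), PNPLA6 (0.876, 0.883) and PGAP2 (0.874, 0.857), of which ENTPD8 encodes an ectonucleotidase. For CLDN2 they were WDTC1 (0.903, 0.834), the transcription factor TBX3 (0.882, 0.825) and the G protein subunit GNA11 (0.907, 0.821). For CLDN7 they were CIB1 (0.949, 0.936), the succinate dehydrogenase subunit SDHB (0.931, 0.929) and CHMP2A (0.898, 0.948). For CLDN4 they were JUP (0.847, 0.835), which encodes the desmosome protein plakoglobin, SRP68 (0.81, 0.808) and SLX9 (0.802, 0.798). For CLDN23 they were GTPBP1 (0.768, 0.697), C2CD2L (0.668, 0.678) and AMPD2 (0.737, 0.662). The background differed between claudins: the share of tested genes with r above 0.5 over the 18 piglets was 20.2% for CLDN7, 11.7% for CLDN15, 10.1% for CLDN4, 9.51% for CLDN2 and 1.06% for CLDN23. These genes share library and depth with the claudins, so the values are a description.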

How the data were processed

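Total RNA of distal small intestine was sequenced by the provider's standard protocol, per the labels' protocols. The authors deposited 1 table per piglet with expected counts (estimated counts that need not be whole, not normalised) and FPKM (which the authors divided by transcript length and library size) per transcript, per the file headers. HISAT and DESeq2 are named in the submitters' processing notes without version or role. The counting program, genome build and strand setting were not given in the sources used here, so genes that overlap cannot be told apart by strand. Lengths are coding lengths.

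Expected counts were summed per gene and rounded. The diet test was edgeR 4.0.16 (R 4.3.3) quasi-likelihood, TMM, filterByExpr (minimum count 10, minimum total 15), diet as the only term, all 21 piglets, Benjamini-Hochberg over 13127 genes, threshold 0.05. DESeq2 1.42.0 and limma 3.58.1 were alternatives. Correlations used log2 CPM (prior count 2) and two-sided permutation with 100000 resamples (numpy 2.4.6). Ranks and the adjustment within each family used scipy 1.17.1. The edgeR diet fit was tested on simulated counts, in which no piglets were made to stand apart. Relations within 1 diet, and FPKM or within-diet residuals over 18 piglets, were added after seeing the data.

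The claudins, the lists, the marker lists and the 3 piglets left out were chosen with earlier results of these data known. All 10 claudins are named, with up to 4 genes of smallest p per junction list and the 3 genes most like each tested claudin. Same-numbered piglets did not deviate together, so numbers were not used as pairs. No sequence was printed, since none was used here.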

Additional observations from a re-analysis of the deposited data

Results flagged for a closer look

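CLDN23 in control 8 was at 1.92 CPM, the lowest of the 10 control piglets. The next was control 5 at 5.48 CPM, and control 7 was highest at 12.7 CPM. On log2 CPM the gap to the next piglet was 0.542 of the group's range, above the critical 0.466 for 10 samples. On CPM without the log the gap was a smaller part of the range and below the critical value. Control 8 is one of the 3 piglets that stood apart in overall expression. Such a rule picks out about 1 in 20 groups by chance, and of the 5 tested claudins in control piglets this was the 1 case. Control 5, also one of the 3, came just under the critical value on log2 CPM as the lowest for CLDN15 (0.462) and for CLDN7 (0.456). The 11 starch piglets were too many for the rule.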

How the results depend on the processing

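No claudin passed the diet comparison in any alternative, and 0 genes were called in each. Small differences changed sign: CLDN4 (main -0.00095) was 0.0044 with voom, 0.0057 with no filter, 0.0515 with the epithelium score as covariate and 0.0051 by transcript. CLDN7 was -0.0021 on FPKM, -0.0151 with the replicate block and -0.0183 in the same piglets with no block, and -0.0059 without the 3 piglets. CLDN23 was -0.0505 with voom, -0.0032 on FPKM with a pseudocount of 1 and -0.11 without the 3. Leaving out single piglets gave -0.26 to -0.07 for CLDN2, -0.0727 to 0.0619 for CLDN4, -0.0317 to 0.12 for CLDN7, 0.13 to 0.38 for CLDN15 and -0.0815 to 0.17 for CLDN23. Genes at an unadjusted p below 0.05 numbered 293 in DESeq2 (1.57% of 18630) and 268 in voom (2.04% of 13127). They numbered 524 with no filter (2.81% of 18630) and 382 without the 3 (2.91% of 13139). Without single piglets they numbered 117 (0.895%) to 302 (2.31%, without starch 3). The cause was not tested.

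Same-numbered piglets did not pair: over 10 pairs, deviations had r of -0.34 to 0.48 (median 0.02), 4 were above 0.1, and 0 piglets correlated best with their own number. With the replicate block 0 genes were called, 188 at an unadjusted p below 0.05 against 203 in the same piglets with no block. CLDN15 was at 0.32, CLDN2 at -0.09, CLDN4 at -0.05 and CLDN23 at 0.10 in the block fit.

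Of the pairs, 3 passed over all 21, 1 on FPKM, 1 on FPKM without the 3, 0 in control and 0 in starch piglets alone. Of the marker relations, 17 passed over all 21, 15 on FPKM over 21, 4 without the 3, 6 with within-diet residuals without the 3, 0 on FPKM without the 3 and 0 in starch piglets alone. Without the 3, on FPKM without the 3 and on residuals without the 3, r turned sign against all 21 for CLDN2 with CLDN7 (-0.308, -0.444, -0.351), CLDN2 with CLDN15 (-0.089, -0.127, -0.056), CLDN4 with CLDN15 (0.423, 0.194, 0.43), CLDN4 with CLDN23 (0.076, 0.037, 0.069), CLDN7 with CLDN23 (-0.029, -0.206, -0.038, and -0.087 on FPKM over 21) and CLDN15 with CLDN23 (-0.221, -0.364, -0.207). CLDN7 with epithelium was -0.142 on FPKM over 21. At this depth CLDN1 never exceeded the 3 counts that a count of 0 allows, and CLDN8 did so in 6 of 21 piglets.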

Other observations

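Other claudins were scarce: CLDN6, CLDN10, CLDN11, CLDN19 and CLDN22 had counts and none passed the filter over 21 piglets. CLDN10, which forms ion pores in kidney and secretory epithelia, had 0 to 35 counts. In the edgeR fit without the 3 piglets its log2 difference was -1.01 (interval -1.96 to -0.05), with p = 0.0397 before and 0.9999 after adjustment in edgeR. In the other fits that kept it, it was also below 0 without a call, for example -0.75 with a mean of at least 1 CPM and -0.49 on FPKM with a pseudocount of 0.5.

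Genes lying within 2 places of a tested claudin in the RefSeq protein-coding gene order of the pig assembly Sscrofa11.1 were set against it across the 18 piglets. Of 13 tested neighbours, r with the claudin was above 0 in 13 and above 0.5 in 9 on log2 CPM, and above 0.5 in 7 on FPKM. For CLDN7 they were ELP5 at 0.833, GABARAP at 0.827, YBX2 at 0.604 and SLC2A4 at 0.479. For CLDN15 they were FIS1 at 0.711, PLOD3 at 0.593 and ZNHIT1 at 0.545, and for CLDN4 ABHD11 at 0.645 and METTL27 at 0.642. For CLDN2 they were MORC4 at 0.501, RBM41 at 0.497 and TBC1D8B at 0.132, and for CLDN23 LONRF1 at 0.349. No neighbour overlapped its claudin in that table. On log2 CPM the shares of all tested genes above 0.5 were 20.2% for CLDN7, 11.7% for CLDN15, 10.1% for CLDN4, 9.51% for CLDN2 and 1.06% for CLDN23. The median r with all tested genes lay between -0.039 (CLDN15) and 0.006 (CLDN2). For the FPKM values no such background is given. Neighbours were read after other results were known, and no test was run.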
